A study of Mus musculus with 16 samples.

Results

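The genes described here are 40 genes that mark or serve liver endothelial cells, followed across 4 groups of mouse livers. They were chosen by name, as genes known for endothelium, and every probe whose RefSeq accession matched such a gene was taken. The 40 genes had 56 probes, out of 19096 genes named on the array, and each gene is given by its brightest probe. Of the 40, 39 were tested and 38 were well above background on all 16 arrays. The other tested gene, Gata4, exceeded background on the 4 arrays of either WT group and on 3 arrays of either KO group. Erg, an endothelial transcription factor, did so on 1 array of either WT group, 2 arrays of KO DEN and 0 of KO DEN + PB and was not tested. The defining markers were thus present in this tissue, and they stand for endothelial cells only as far as the rest of the liver does not express them: Mrc1, Fcgr2b and Vcam1 are also made by Kupffer cells.

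The study asked how loss of Gadd45b alters tumour promotion by phenobarbital (PB) in the liver. All mice were male, received 1 dose of the carcinogen N-diethylnitrosamine (DEN, 90 mg/kg) at 5 weeks of age and were 57 weeks old at collection. WT DEN and KO DEN mice drank plain water, whereas WT DEN + PB and KO DEN + PB mice drank 0.5 g/l PB from 7 weeks of age until collection. RNA came from liver outside tumours and was measured on 1-colour arrays, 1 per mouse and 4 per group. WT mice were C57BL/6J, and KO mice were null for Gadd45b in all cells. The name of the KO stock lists another inbred strain besides B6, while the methods also give a C57BL/6J background, and a difference of strain between the genotypes was not tested. Gadd45b lies on chromosome 10 together with 5 of the 40 genes (Stab2, Oit3, Gpr182, Ptprb and Rspo3). The probe of Gadd45b itself exceeded background on 8 of 8 arrays of WT mice and on 0 of 8 of KO mice. Levels below are log2 of the processed signal relative to the 75th percentile of the array, so that 0 is that percentile and a step of 1 is a 2-fold change. Levels are compared between groups for 1 probe, never between probes.

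Blood crosses the liver through sinusoids, capillaries whose endothelial cells have open pores and no continuous basement membrane, and which remove waste molecules from blood through scavenger receptors. The cells also instruct their neighbours: endothelium near the central vein releases Wnt2, Wnt9b and Rspo3, which keep the gene programme of pericentral hepatocytes. In chronic injury sinusoidal cells can lose their pores and gain markers of ordinary capillaries, such as Cd34 and Vwf, a change known as capillarization.

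In livers of mice given PB, endothelial genes were lower in KO than in WT. A gene is said here to pass the threshold when its limma p, adjusted by Benjamini-Hochberg over all probes tested, was under 0.05 and its change was at least 1.5-fold. Under DEN + PB, 11 of the 39 tested genes passed lower and 0 passed higher, beside 5.82% of all 13302 genes tested that passed lower and 1.74% that passed higher. The fitted change was below 0 for 36 of 39 genes, against 46.4% of all genes, with a median of -0.54 on the log2 scale against 0.03 for all genes. For 21 of the 39, all 4 KO livers lay below all 4 WT livers, and 9.87% of all genes did so. Among the 11 genes, the fall ran from 1.73-fold to 2.36-fold, and each fell within each of the 4 slides, which all held 1 array of either group. In bulk tissue, fewer endothelial cells and less RNA of these genes per cell cannot be told apart. Kupffer cell markers fell in the same comparison (10 of 11 passed lower), and their part in the endothelial result was not tested.

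**Figure D1:**
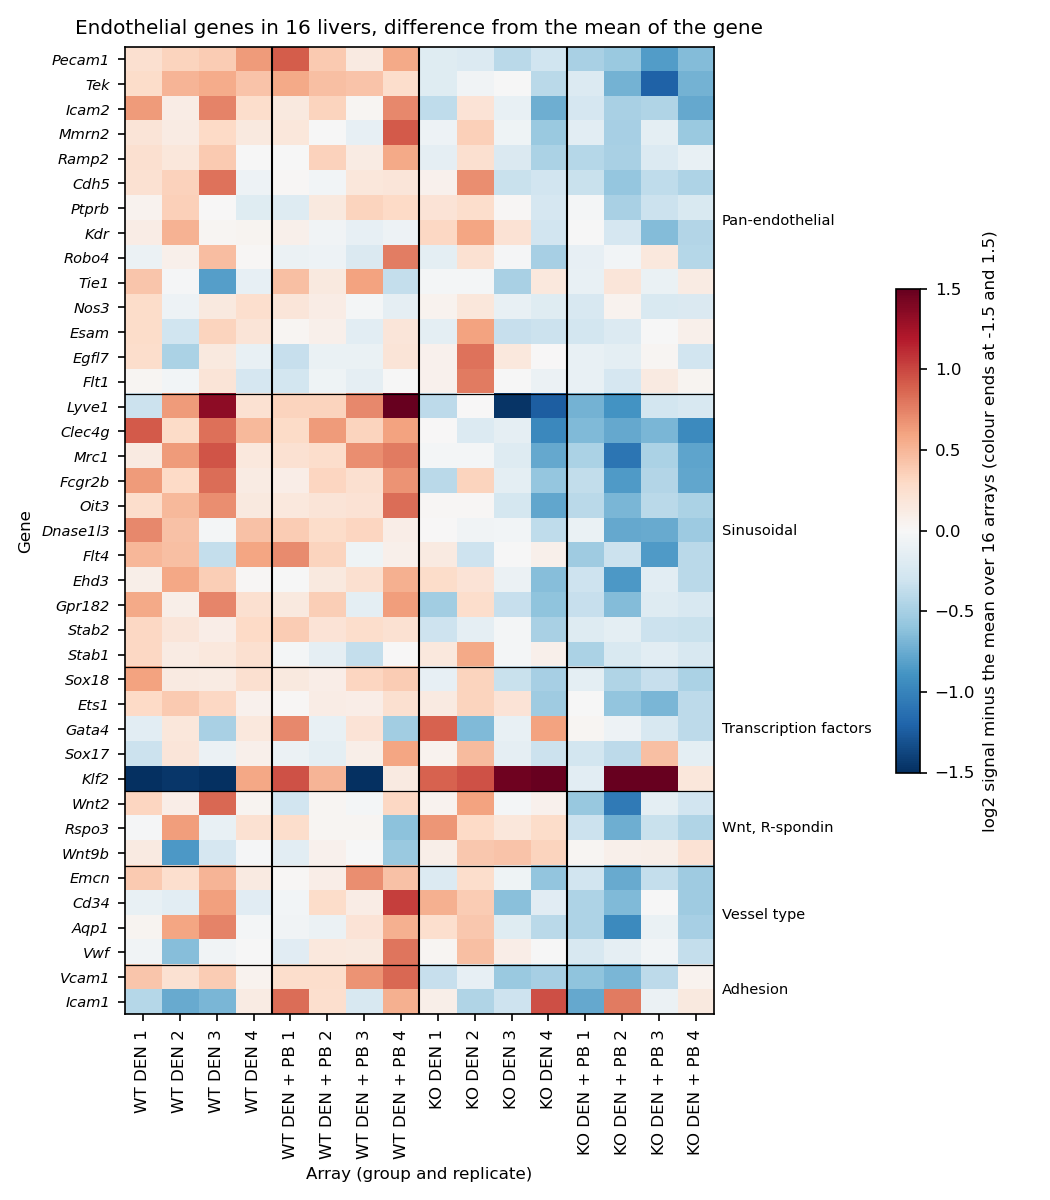
Level of 39 endothelial genes (rows, by role) on 16 arrays (columns, 4 per group), as the log2 difference from the mean of that gene. The KO DEN + PB columns are mostly blue, with an array median between -0.49 and -0.23, whereas the WT DEN + PB columns have medians between 0.12 and 0.38.

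Genes of the sinusoidal cell held 6 of the 11 calls, counting Mrc1 and Fcgr2b, which Kupffer cells also make. Of 11 sinusoidal genes, 6 passed lower under DEN + PB, and the median of the 11 was -0.81. All 11 were fitted below 0, and for 10 of them the KO and WT livers did not overlap.

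Clec4g, a lectin receptor of sinusoidal cells, had the largest fall of the genes that passed. Its levels were 4.98, 4.35, 4.89 and 4.55 in WT DEN, 4.35, 4.70, 4.39 and 4.66 in WT DEN + PB, 4.06, 3.86, 3.92 and 3.09 in KO DEN, and 3.40, 3.29, 3.37 and 3.1 in KO DEN + PB. All KO livers lay below all WT livers under either treatment. The change between genotypes under DEN + PB was -1.24 (SE 0.20, limma adjusted p = 0.00169), a fall of 2.36-fold. A two-sided exact permutation test gave 0.0286, the smallest p that 70 assignments of 4 against 4 arrays allow. That p holds for each of the 11 genes.

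Mrc1, the mannose receptor, takes up glycoproteins from blood. Levels of Mrc1 were 1.68, 2.19, 2.49 and 1.70 in WT DEN, 1.78, 1.81, 2.24 and 2.33 in WT DEN + PB, 1.52, 1.52, 1.35 and 0.78 in KO DEN, and 1.07, 0.45, 1.07 and 0.76 in KO DEN + PB. The KO livers lay below the WT livers without overlap, also under DEN alone. Between genotypes the change under DEN + PB was -1.20 (SE 0.23, limma adjusted p = 0.00463).

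Fcgr2b, the inhibitory Fc receptor through which sinusoidal cells take up immune complexes, had levels of 3.36, 3.02, 3.56 and 2.85 in WT DEN, 2.82, 3.05, 2.97 and 3.40 in WT DEN + PB, 2.32, 3.06, 2.58 and 2.14 in KO DEN, and 2.35, 1.88, 2.29 and 1.94 in KO DEN + PB. Under DEN + PB the genotypes did not overlap, while under DEN alone KO DEN 2 lay among the WT livers. The change under DEN + PB was -0.95 (SE 0.21, limma adjusted p = 0.0132). Both other probes of Fcgr2b passed as well, at -1.07 and -1.46 under DEN + PB and at -0.75 and -1.0 under DEN, where the brightest probe did not pass.

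Oit3, a marker of sinusoidal cells in mouse liver, had levels of 2.23, 2.45, 2.67 and 2.11 in WT DEN, 2.13, 2.16, 2.18 and 2.81 in WT DEN + PB, 1.98, 1.98, 1.70 and 1.19 in KO DEN, and 1.56, 1.28, 1.56 and 1.49 in KO DEN + PB. The KO livers were below the WT livers in both pairs of groups. With PB the change between genotypes was -0.85 (SE 0.20, limma adjusted p = 0.0179). Another probe of Oit3 passed under both treatments, at -1.32 under DEN and -1.75 under DEN + PB.

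Dnase1l3, a secreted nuclease that clears chromatin from blood, had levels of 2.55, 2.27, 1.80 and 2.28 in WT DEN, 2.21, 2.11, 2.16 and 1.94 in WT DEN + PB, 1.84, 1.78, 1.79 and 1.45 in KO DEN, and 1.74, 1.07, 1.08 and 1.29 in KO DEN + PB. The groups did not overlap under DEN + PB, where the change was -0.81 (SE 0.18, limma adjusted p = 0.0121). Under DEN alone WT DEN 3 and the KO livers overlapped.

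Flt4, the receptor for the growth factors Vegfc and Vegfd, had levels of -2.02, -2.06, -2.87 and -1.92 in WT DEN, -1.81, -2.18, -2.58 and -2.44 in WT DEN + PB, -2.38, -2.83, -2.52 and -2.44 in KO DEN, and -3.05, -2.84, -3.36 and -2.92 in KO DEN + PB. The genotypes separated under DEN + PB and overlapped under DEN. KO minus WT under DEN + PB was -0.79 (SE 0.22, limma adjusted p = 0.0379). Flt4 passed in 5 of 11 processing alternatives, and with normexp background correction after outlying backgrounds were left out its change was -0.13.

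Stab2 and Lyve1 are receptors for hyaluronan. Stab2 was measured at 2.45, 2.32, 2.24 and 2.44 in WT DEN, 2.52, 2.34, 2.41 and 2.37 in WT DEN + PB, 1.83, 2.00, 2.11 and 1.65 in KO DEN, and 1.95, 1.99, 1.82 and 1.81 in KO DEN + PB. These values are tight and did not overlap between genotypes in either pair of groups. The change of Stab2 under DEN + PB was -0.52 (SE 0.13, limma adjusted p = 0.0217), significant but short of the fold threshold at 1.43-fold.

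Lyve1 had the lowest fitted change of the 39 genes and a wide spread, with levels of -0.26, 0.71, 1.41 and 0.29 in WT DEN, 0.40, 0.40, 0.79 and 2.00 in WT DEN + PB, -0.33, 0.07, -1.40 and -1.17 in KO DEN, and -0.64, -0.83, -0.21 and -0.18 in KO DEN + PB. By this brightest probe, every KO liver was below 0 under DEN + PB and every WT liver above it. The change was -1.36 (SE 0.40, limma adjusted p = 0.0527), which missed the threshold. It passed when WT DEN 1, WT DEN 3, KO DEN 2 or KO DEN 3 was left out, with limma adjusted p between 0.0369 and 0.049. A dimmer probe of Lyve1 gave -0.69 (limma adjusted p = 0.210) under DEN + PB, where its groups overlapped, and -0.56 (0.345) under DEN. The other sinusoidal genes were Ehd3 (-0.66, adjusted p = 0.0746 by limma), Gpr182 (-0.61, 0.107) and Stab1 (-0.15, 0.578). Ehd3 passed without KO DEN 4 (limma adjusted p = 0.0443).

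Promoter sequences were available for 21 of the 40 genes, among them 6 of the 11 that passed. The 250 bases before the start of 5 genes are shown here because they set the 3 genes with an entry that fell most under DEN + PB (Clec4g, Mrc1 and Tek) beside Flt1 and Robo4, endothelial genes that did not pass. They are RefSeq sequences of build GRCm38.p6, 5′ to 3′ on the strand of the gene, at chr8:3720652-3720901 (minus strand), chr2:14229164-14229413 (plus), chr4:94739039-94739288 (plus), chr5:147726012-147726261 (minus) and chr9:37401722-37401971 (plus), in the order printed. Capitals mark GGAAG or its reverse complement CTTCC, the core letters that ETS factors such as Erg and Ets1 can bind, and overlapping matches are marked as 1 run.
Clec4g: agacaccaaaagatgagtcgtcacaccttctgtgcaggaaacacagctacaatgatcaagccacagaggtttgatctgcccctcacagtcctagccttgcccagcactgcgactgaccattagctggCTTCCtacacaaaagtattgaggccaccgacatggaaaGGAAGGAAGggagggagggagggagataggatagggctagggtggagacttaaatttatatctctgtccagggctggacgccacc
Mrc1: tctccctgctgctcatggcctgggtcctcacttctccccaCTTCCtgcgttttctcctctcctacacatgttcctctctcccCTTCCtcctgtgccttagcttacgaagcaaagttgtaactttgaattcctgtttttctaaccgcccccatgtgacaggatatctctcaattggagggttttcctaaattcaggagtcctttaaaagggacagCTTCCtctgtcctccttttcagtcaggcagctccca
Tek: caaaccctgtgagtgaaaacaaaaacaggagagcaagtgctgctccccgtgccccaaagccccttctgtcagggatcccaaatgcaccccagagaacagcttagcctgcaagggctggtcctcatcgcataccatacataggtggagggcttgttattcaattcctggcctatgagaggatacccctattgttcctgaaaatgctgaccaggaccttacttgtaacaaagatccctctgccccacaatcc
Flt1: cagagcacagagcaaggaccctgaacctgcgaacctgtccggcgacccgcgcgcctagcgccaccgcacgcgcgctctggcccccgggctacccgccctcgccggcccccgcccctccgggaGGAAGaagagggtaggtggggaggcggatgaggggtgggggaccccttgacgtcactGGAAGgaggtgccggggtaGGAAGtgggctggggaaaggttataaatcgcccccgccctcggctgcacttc
Robo4: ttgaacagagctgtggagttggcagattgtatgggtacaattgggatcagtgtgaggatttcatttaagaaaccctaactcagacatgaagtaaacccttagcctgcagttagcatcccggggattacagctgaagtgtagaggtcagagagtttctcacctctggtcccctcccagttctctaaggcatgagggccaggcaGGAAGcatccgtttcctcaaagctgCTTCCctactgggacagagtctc
There were 3 matches in Clec4g, 3 in Mrc1, 0 in Tek, 3 in Flt1 and 2 in Robo4. The match was thus found on either side of the threshold. Over all entries, 17 of 21 endothelial genes held a match, 5 of the 6 that passed included, and so did 64.1% of 32851 mouse promoters of this length. The SOX core ACAAT (reverse ATTGT) was in 7 of 21 and in 27.7% of all, the GATA letters AGATAA (reverse TTATCT) in 1 of 21 and 9.99%, and the KLF core CACCC (reverse GGGTG) in 13 of 21 and 52% of all. These are matches of letters, not binding sites.

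Genes that all blood vessels express held fewer calls, and no test compared the roles with each other. Of 14 receptors and junction genes, 3 passed lower under DEN + PB (Pecam1, Tek and Icam2), 13 were fitted below 0, and the median was -0.35.

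Pecam1, the junction protein CD31, had levels of -2.73, -2.64, -2.59 and -2.34 in WT DEN, -2.06, -2.58, -2.84 and -2.40 in WT DEN + PB, -3.15, -3.18, -3.38 and -3.27 in KO DEN, and -3.46, -3.53, -3.81 and -3.62 in KO DEN + PB. The KO livers were below all WT livers in both pairs of groups. The change under DEN + PB was -1.13 (SE 0.16, limma adjusted p = 0.000646), a fall of 2.19-fold. This probe is dim, and with normexp background correction after outlying backgrounds were left out its change was -0.22 and did not pass.

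Tek, the angiopoietin receptor TIE2, had levels of -0.97, -0.73, -0.69 and -0.81 in WT DEN, -0.67, -0.79, -0.82 and -0.98 in WT DEN + PB, -1.42, -1.29, -1.25 and -1.65 in KO DEN, and -1.45, -1.95, -2.46 and -1.95 in KO DEN + PB. Every KO liver was below every WT liver under either treatment. The change was -1.13 (SE 0.18, limma adjusted p = 0.00135) under DEN + PB. With normexp after outlying backgrounds were left out, Tek gave -0.54 (limma adjusted p = 0.00965), short of the fold threshold.

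Icam2, a ligand of leukocyte integrins, had levels of 1.60, 1.08, 1.71 and 1.23 in WT DEN, 1.11, 1.30, 0.99 and 1.68 in WT DEN + PB, 0.58, 1.17, 0.85 and 0.23 in KO DEN, and 0.71, 0.48, 0.51 and 0.20 in KO DEN + PB. The genotypes did not overlap under DEN + PB, and KO DEN 2 overlapped with the WT livers under DEN. KO minus WT was -0.79 under DEN + PB (SE 0.22, limma adjusted p = 0.0347).

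Cdh5, the VE-cadherin of endothelial junctions, gave different calls with its 2 probes. The brightest read 1.98, 2.09, 2.56 and 1.67 in WT DEN, 1.76, 1.70, 1.91 and 1.93 in WT DEN + PB, 1.81, 2.44, 1.41 and 1.46 in KO DEN, and 1.41, 1.16, 1.36 and 1.28 in KO DEN + PB. Under DEN + PB its groups did not overlap, with a change of -0.52 (SE 0.22, limma adjusted p = 0.161). The dimmer probe read -0.77, -0.65, -1.02 and -0.44 in WT DEN, -0.47, -0.86, -0.99 and -1.14 in WT DEN + PB, -1.31, -1.90, -1.67 and -1.77 in KO DEN, and -1.83, -1.86, -2.84 and -2.26 in KO DEN + PB, again with no overlap between genotypes under either treatment. It passed under DEN (-0.94, SE 0.22, limma adjusted p = 0.0331) and under DEN + PB (-1.33, SE 0.22, limma adjusted p = 0.00208).

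The other 10 genes of this role did not pass. Under DEN + PB the changes were -0.59 for Mmrn2 and -0.57 for Ramp2, whose groups did not overlap, and -0.41 for Ptprb. Ramp2 passed without WT DEN + PB 1 (-0.65, limma adjusted p = 0.0473). Kdr and Flt1, the main receptors of Vegfa, gave -0.29 (SE 0.19) and 0.07 (SE 0.18). The rest were Robo4 (-0.21), Tie1 (-0.20), Nos3, the endothelial nitric oxide synthase (-0.19), Esam (-0.14) and Egfl7 (-0.04). A dimmer probe of Ptprb had the opposite sign (0.95, limma adjusted p = 0.109), the mean over both probes of Ptprb was 0.27, and a dimmer probe of Flt1 gave -0.29.

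**Figure D2:**
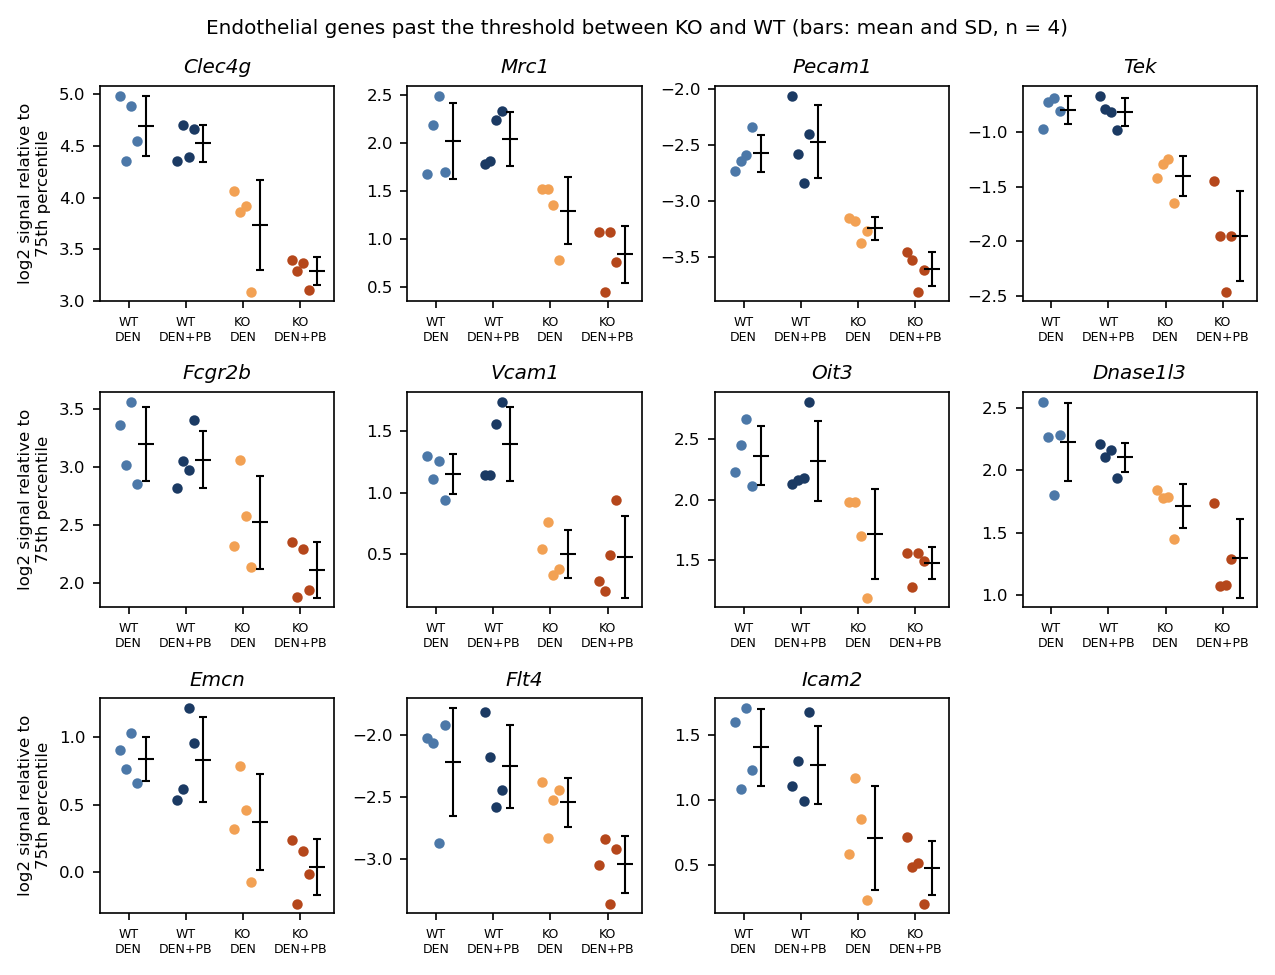
Level (log2 signal relative to the 75th percentile of the array) of the 11 endothelial genes that passed the threshold between KO and WT, 1 point per liver, with mean and SD of 4. In every panel the 4 KO DEN + PB points lie below the 4 WT DEN + PB points. Each panel has its own axis.

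Capillary markers did not pass higher in KO livers. Of 4 vessel type genes, 1 passed lower, Emcn, and all 4 were fitted below 0 under DEN + PB, with a median of -0.71.

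Emcn, a sialomucin of capillaries and veins, had levels of 0.91, 0.77, 1.03 and 0.66 in WT DEN, 0.54, 0.62, 1.22 and 0.96 in WT DEN + PB, 0.32, 0.79, 0.46 and -0.07 in KO DEN, and 0.24, -0.23, 0.16 and -0.01 in KO DEN + PB. The genotypes did not overlap under DEN + PB, where the change was -0.80 (SE 0.19, limma adjusted p = 0.0205), and overlapped under DEN.

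Cd34, a sialomucin of ordinary capillaries, had levels of -0.76, -0.81, -0.04 and -0.82 in WT DEN, -0.70, -0.38, -0.54 and 0.38 in WT DEN + PB, -0.12, -0.27, -1.28 and -0.82 in KO DEN, and -1.12, -1.32, -0.66 and -1.19 in KO DEN + PB. WT DEN + PB 4 was the highest liver of all and the genotypes overlapped. The change under DEN + PB was -0.76 (SE 0.28, limma adjusted p = 0.118). Under DEN it was -0.01, and the sign turned to 0.05 in the series table without scaling and to 0.14 with slide as a block.

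Vwf, the carrier of clotting factor VIII made by larger vessels, had levels of 0.55, -0.03, 0.55 and 0.60 in WT DEN, 0.44, 0.76, 0.75 and 1.41 in WT DEN + PB, 0.63, 1.06, 0.71 and 0.60 in KO DEN, and 0.37, 0.47, 0.57 and 0.25 in KO DEN + PB. Under DEN the KO livers lay above the WT livers, though the nearest of either group both read 0.60, with a change of 0.33 (SE 0.20, limma adjusted p = 0.376). Under DEN + PB the change was -0.42 (SE 0.20, limma adjusted p = 0.219), with overlap. A dimmer probe of Vwf gave 0.24 (limma adjusted p = 0.472) under DEN, with overlap, and -0.43 (0.154) under DEN + PB, without overlap. Aqp1, a water channel, gave -0.66 (limma adjusted p = 0.111).

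Vcam1, an adhesion molecule that holds leukocytes to the vessel wall, passed lower under DEN + PB and had levels of 1.30, 1.11, 1.26 and 0.94 in WT DEN, 1.14, 1.14, 1.56 and 1.74 in WT DEN + PB, 0.54, 0.76, 0.33 and 0.38 in KO DEN, and 0.28, 0.20, 0.49 and 0.94 in KO DEN + PB. The KO livers lay below the WT livers without overlap under either treatment. The change was -0.92 (SE 0.19, limma adjusted p = 0.00744), and a dimmer probe gave -1.63 (limma adjusted p = 0.0417). Icam1, the other adhesion molecule, gave -0.33 (SE 0.35) and did not pass.

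Of 5 tested transcription factors 0 passed by limma. Under DEN + PB, 2 had an unadjusted limma p under 0.05, beside 3100 of all 13302 genes. Sox18 gave -0.59 (limma adjusted p = 0.0523) and Ets1 -0.54 (0.101), in both cases without overlap of the groups. The probes of Ets1 disagreed: a dimmer one gave 0.60 under DEN + PB (limma adjusted p = 0.444) and 1.39 under DEN (0.0932), and another -0.61 and -0.09. The mean over the probes of Ets1 turned its change under DEN from -0.23 to 0.36. Sox17 and Gata4 gave -0.20 and -0.24. Sox18 passed without WT DEN 1, KO DEN 2, KO DEN 4 or KO DEN + PB 1 (limma adjusted p between 0.0212 and 0.0498), and Ets1 without KO DEN + PB 1 (-0.68, 0.0429).

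**Figure D3:**
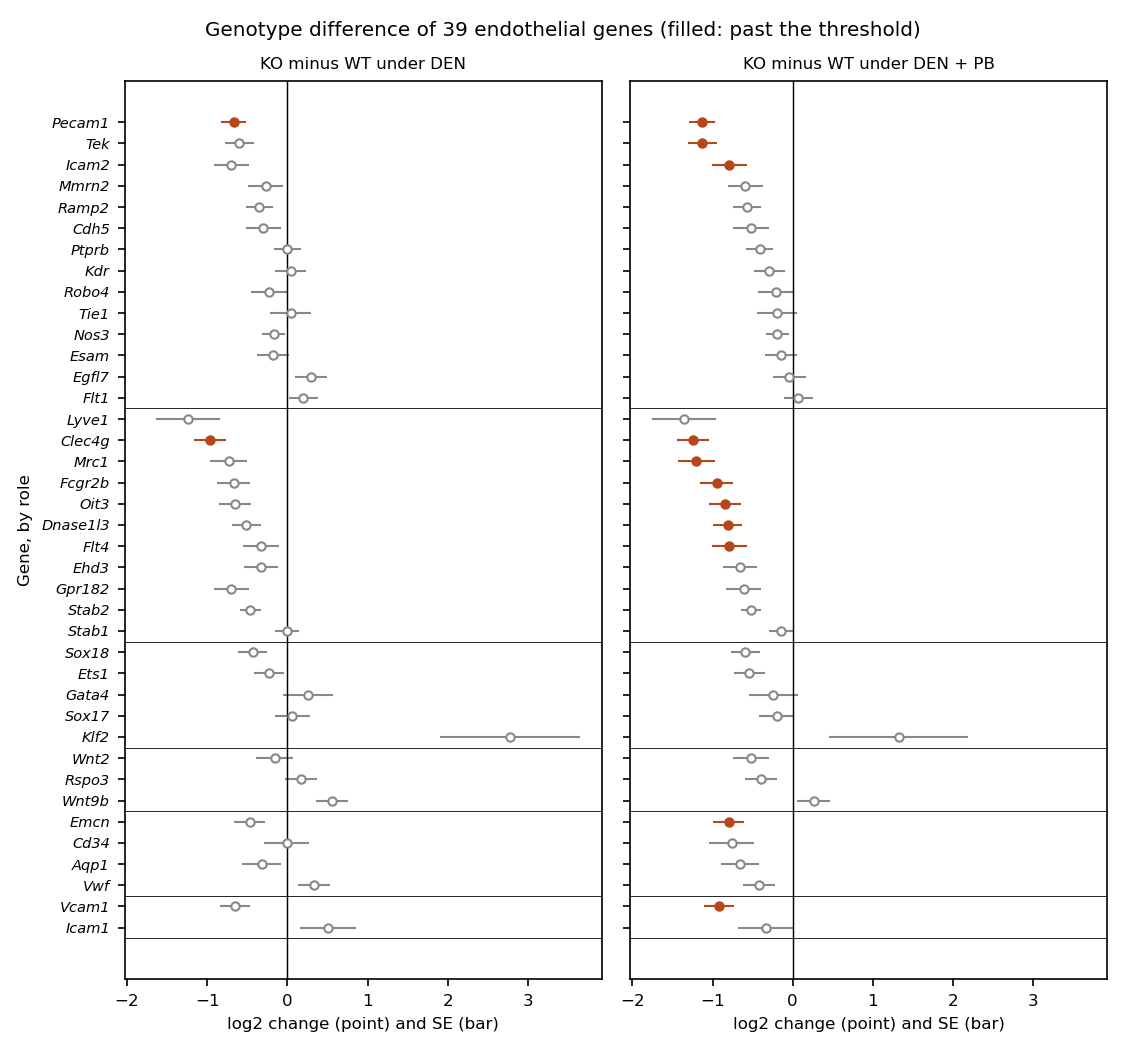
Log2 change KO minus WT under DEN (left) and under DEN + PB (right) of 39 endothelial genes, point and SE from the fit, rows by role and separated by lines. Filled points passed the threshold, 2 on the left and 11 on the right.

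Without PB, fewer endothelial genes passed between the genotypes. Under DEN alone, 2 of 39 genes passed lower, Clec4g (-0.96, SE 0.20, limma adjusted p = 0.0188) and Pecam1 (-0.67, SE 0.16, limma adjusted p = 0.036), beside 1.71% of all genes. Fitted changes were below 0 for 28 of 39 genes, against 54.9% of all genes, and the median was -0.27 against -0.04. The sinusoidal genes were again all 11 below 0, with a median of -0.65. The groups separated lower for 7 genes (Pecam1, Tek, Stab2, Clec4g, Oit3, Mrc1 and Vcam1) beside 6.35% of all genes, and higher for 2 (Vwf and Klf2) beside 4.6%. The count of 2 is near the share of all genes, and the dimmer probes of Vwf and Klf2 overlapped between the groups. Changes that missed the threshold were -0.73 for Mrc1 (limma adjusted p = 0.089), -0.70 for Gpr182 (0.0846), -0.70 for Icam2 (0.0832), -0.65 for Vcam1 (0.0693) and -0.60 for Tek (0.0754). Lyve1 gave -1.24 with overlapping groups. Tek passed without KO DEN + PB 1 or KO DEN + PB 3 (limma adjusted p = 0.0467 and 0.0419), and Gpr182 without KO DEN 2 (-0.89, limma adjusted p = 0.0447).

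These 2 calls were fragile. Pecam1 did not pass when any of the 8 arrays compared was left out, with limma adjusted p between 0.0515 and 0.0909. Clec4g did not pass without WT DEN 1 (0.0579) or WT DEN 3 (0.062). Within slides, only slides 1 and 3 held both groups, and Clec4g gave -1.12 and -0.82 there and Pecam1 -0.45 and -0.55. With slide as a block 0 genes passed under DEN.

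Under DEN + PB the count rested partly on single arrays. Of the 11 genes, 6 passed in each of 16 fits that left out 1 array (Clec4g, Mrc1, Tek, Pecam1, Dnase1l3 and Vcam1). Without WT DEN + PB 4, 6 genes passed, and without KO DEN + PB 2, 7 passed. Without WT DEN + PB 4 the limma adjusted p was 0.0503 for Fcgr2b, 0.0641 for Oit3, 0.0624 for Emcn, 0.112 for Icam2 and 0.0584 for Flt4. Without KO DEN + PB 2 it was 0.0621 for Oit3, 0.0753 for Emcn, 0.0814 for Icam2 and 0.0575 for Flt4. Emcn was also lost without WT DEN + PB 3 or KO DEN + PB 4, Icam2 without WT DEN + PB 2, KO DEN + PB 3 or KO DEN + PB 4, and Flt4 without any compared array but WT DEN + PB 3. With normexp background correction 0 genes passed under DEN + PB, although 36 of 39 were still below 0, and with outlying backgrounds left out first 12 passed, of which 8 were among the 11. Tek, Pecam1 and Flt4 were lost there, and Ehd3, Gpr182, Lyve1 and Ramp2 were gained.

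PB itself moved 0 of these 39 genes past the threshold in either genotype. With the small shares of all genes that passed, this count is not particular to endothelial genes. Dll4 and Il1a, which are outside the 39, did pass and are given below. In WT, by limma 0 of 39 passed (0.737% of all genes did). For 2 the unadjusted limma p was under 0.05, beside 1103 of all 13302 genes. Of the 39, 23 were below 0 and the median was -0.03, against -0.02 for all genes. Those 2 genes were Icam1 (0.78, SE 0.35, limma adjusted p = 0.636) and Stab1 (-0.33, SE 0.15, limma adjusted p = 0.638), and Stab1 was the gene whose groups did not overlap (lower, as for 1.95% of all genes). The share of all genes below 0 was 54.1%.

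In KO, by limma 0 of 39 passed (2.12% of all genes did). An unadjusted limma p under 0.05 was found for 12, beside 1760 of all 13302 genes. Of the 39, 36 were below 0, against 48.1% of all genes. The median was -0.33 against 0.01. The groups separated lower for 6 genes (Rspo3, Wnt2, Stab1, Pecam1, Flt4 and Vwf), beside 4.03% of all genes. With normexp, before and after outlying backgrounds were left out, the change of Rspo3 was near 0 (-0.01 and -0.02 in place of -0.81), and the signs of Pecam1 (0.07 and 0.06 from -0.36) and Flt4 (0.01 in both, from -0.50) turned. Tek gave -0.55, and -0.71 with a limma adjusted p of 0.0389 without KO DEN + PB 1. Kdr gave -0.55, while Stab2 (-0.01) and Vcam1 (-0.02) were near 0. Both effects of PB share no arrays with each other, but each shares a group with a genotype comparison above.

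The difference between the PB effects (WT minus KO, the interaction) was tested in the same fit, and by limma 0 of 39 endothelial genes and 0% of all genes passed. Of the 39, 36 were above 0 and 3 below (56% of all genes were below), with a median of 0.30 against -0.04 for all genes. An unadjusted limma p under 0.05 was found for 1 gene, Vwf (0.75, SE 0.28, limma adjusted p = 0.668), beside 879 of all 13302 genes. An ordinary linear model without moderation of the variances likewise gave 0. The interaction is also the difference between the genotype effects, so that effects of genotype under DEN + PB and under DEN were not shown to differ for any of these genes.

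The 3 signals that endothelium sends to pericentral hepatocytes did not pass in any comparison. Rspo3, which strengthens Wnt signalling, had levels of -3.65, -3.01, -3.75 and -3.40 in WT DEN, -3.37, -3.60, -3.60 and -4.25 in WT DEN + PB, -2.97, -3.34, -3.47 and -3.36 in KO DEN, and -3.96, -4.37, -3.97 and -4.08 in KO DEN + PB. All 4 KO DEN + PB livers lay below all 4 KO DEN livers, and the PB effect in KO was -0.81 (SE 0.20, limma adjusted p = 0.0581, exact permutation p = 0.0286). It passed without WT DEN 2 or WT DEN + PB 4 (limma adjusted p = 0.0442 and 0.0263). In WT the PB effect was -0.25 (SE 0.20), and the difference between genotypes was 0.56 (SE 0.29, limma adjusted p = 0.887). These values depended on the background correction: with normexp the PB effect in KO was -0.01 and the difference between genotypes -0.07, and after outlying backgrounds were left out they were -0.02 and -0.09. With normexp after outlying backgrounds were left out the change of Rspo3 under DEN + PB turned from -0.39 to 0.11, and with plain normexp that under DEN from 0.17 to -0.33.

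Wnt2 had levels of 1.01, 0.78, 1.55 and 0.73 in WT DEN, 0.40, 0.72, 0.65 and 1.0 in WT DEN + PB, 0.74, 1.29, 0.65 and 0.75 in KO DEN, and 0.12, -0.37, 0.54 and 0.40 in KO DEN + PB. Again the KO DEN + PB livers lay below the KO DEN livers without overlap, with a PB effect in KO of -0.69 (SE 0.23, limma adjusted p = 0.174, exact permutation p = 0.0286) and in WT of -0.32 (SE 0.23). KO minus WT was -0.52 under DEN + PB and -0.16 under DEN, the latter 0.02 without WT DEN 3.

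Wnt9b had levels of -2.83, -3.83, -3.21 and -2.98 in WT DEN, -3.12, -2.90, -2.97 and -3.52 in WT DEN + PB, -2.87, -2.56, -2.54 and -2.63 in KO DEN, and -2.93, -2.89, -2.88 and -2.75 in KO DEN + PB. Its groups overlapped in each comparison. KO minus WT was 0.56 under DEN (limma adjusted p = 0.119) and 0.26 under DEN + PB (0.444), with signs that turned under other scalings (-0.08 in the series table without scaling under DEN + PB, and -0.22 under DEN and -0.10 under DEN + PB with normexp).

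Of 16 genes that respond to these signals in pericentral hepatocytes, 1 passed higher and 0 lower in KO under DEN + PB, Slc1a2, a glutamate transporter (0.73, SE 0.20, limma adjusted p = 0.0318). Of all genes, 1.74% passed higher and 5.82% lower. The median of the 16 was 0.27 against 0.03 for all genes, and 14 were above 0, where 46.4% of all genes were below. Hepatocyte markers shifted the same way, with a median of 0.32. With PB, Rhbg, an ammonia transporter, rose in WT (1.92) and in KO (1.79), and the drug-metabolizing enzyme Cyp1a2 rose in KO (1.03). With PB, 0.737% of all genes passed in WT and 2.12% in KO, either direction counted. No target passed lower in any of these comparisons.

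Klf2, the transcription factor that endothelium induces under flow, was the most variable of the 39 genes by its brightest probe, with an SD of 1.70 over the 16 arrays. That probe read 1.98, 2.63, 0.79 and 4.67 in WT DEN, 5.04, 4.59, 0.57 and 4.22 in WT DEN + PB, 4.97, 5.04, 5.54 and 5.62 in KO DEN, and 3.93, 5.84, 5.68 and 4.25 in KO DEN + PB. Under DEN all KO livers lay above all WT livers, with a change of 2.78 (SE 0.87, limma adjusted p = 0.0867, exact permutation p = 0.0286). It passed without WT DEN 4 (3.49, limma adjusted p = 0.0411) or WT DEN + PB 3 (2.78, limma adjusted p = 0.0268). The other probe of Klf2 did not share the spread: it read 2.20, 1.89, 2.87 and 2.01 in WT DEN, 1.95, 2.16, 1.97 and 2.48 in WT DEN + PB, 2.34, 3.06, 2.61 and 2.35 in KO DEN, and 1.73, 1.55, 2.08 and 1.92 in KO DEN + PB. Its change was 0.35 (SE 0.22) under DEN and -0.32 (SE 0.22) under DEN + PB, with limma adjusted p of 0.401 and 0.417, where the brightest probe gave 1.32 (SE 0.87). The probes thus disagree on size, and under DEN + PB on sign.

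**Figure D4:**
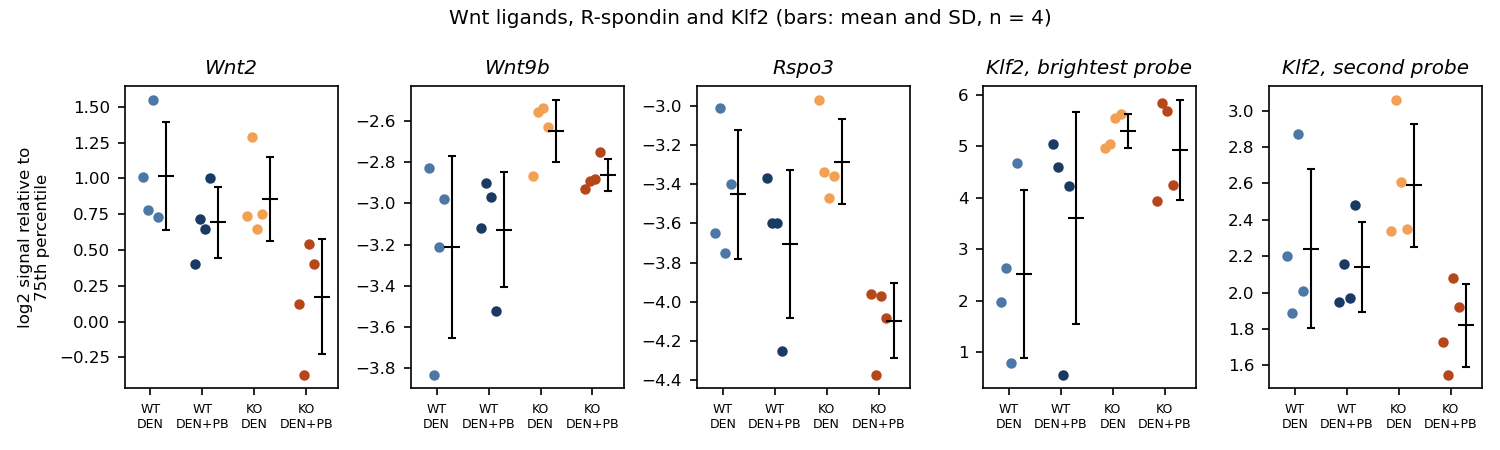
Level (log2 signal relative to the 75th percentile of the array) of Wnt2, Wnt9b, Rspo3 and both Klf2 probes, 1 point per liver with mean and SD of 4. Rspo3 and Wnt2 have their lowest group mean in KO DEN + PB, and the brightest Klf2 probe spans 0.57 to 5.84 where the other spans 1.55 to 3.06. Each panel has its own axis.

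Further endothelial genes came from a list of 60, of which 54 were tested. This list was chosen with earlier results of these data known, so it is not an independent check. Under DEN + PB, 17 passed lower and 0 higher, beside 5.82% and 1.74% of all genes. Of the 54, 45 were below 0, against 46.4% of all genes, and the median was -0.52. The lowest adjusted p belonged to Clec14a, an endothelial surface lectin (-1.91, SE 0.24, limma adjusted p = 0.00028), Adgrl4, an adhesion receptor (-2.03, SE 0.28, limma adjusted p = 0.000476), F8, clotting factor VIII, which sinusoidal cells make (-1.22, SE 0.17, limma adjusted p = 0.000549), and Tfpi, an inhibitor of clotting (-1.5, SE 0.22, limma adjusted p = 0.000747). Under DEN, 5 passed lower and 1 higher, beside 228 and 135 of all 13302 genes. The gene that passed higher was Hhex, a transcription factor that hepatocytes also express (1.32, SE 0.23, limma adjusted p = 0.00573), and among the lower were F8 (-1.02), Adgrl4 (-1.53) and Clec14a (-1.31). With PB in KO, Il1a passed lower (-1.36, limma adjusted p = 0.0184). In WT 0 of 54 passed by limma, and 2 had an unadjusted p under 0.05, beside 1103 of all 13302 genes.

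Of 14 tested ligands of endothelial receptors 0 passed between genotypes under DEN + PB by limma, and the median was -0.02. An unadjusted limma p under 0.05 was found for 2, beside 3100 of all 13302 genes. Dll4, a Notch ligand made by endothelium, rose with PB in WT (1.31, SE 0.19, limma adjusted p = 0.0014) and in KO (1.15, SE 0.19, limma adjusted p = 0.00331). Edn1, the vasoconstrictor endothelin, was lower in KO under DEN (-1.33, SE 0.29, limma adjusted p = 0.021), and gave -0.88 under DEN + PB.

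Among markers of other liver cells, the Kupffer cell, stellate cell and cholangiocyte lists were also lower in KO under DEN + PB. Of 11 Kupffer cell markers, 10 passed lower in KO under DEN + PB (median -1.33) and 6 under DEN (median -1.01), for example Vsig4 (-2.33 under DEN + PB) and Cd68 (-1.77). Their summed linear signal, in units of the 75th percentile, was 70.5 to 242 in WT DEN, 86.4 to 100.8 in WT DEN + PB, 46.8 to 65.5 in KO DEN and 33.2 to 67.7 in KO DEN + PB, so that KO and WT livers did not overlap. For the 39 endothelial genes the sums were 194 to 225 in WT DEN, 175 to 244 in WT DEN + PB, 164 to 226 in KO DEN and 134 to 183 in KO DEN + PB. Those ranges overlap between genotypes under either treatment, and the brightest genes weigh most in such a sum. Without Klf2, whose probes disagree and which was left out after these values were seen, the sums of the other 38 genes were 169 to 224 in WT DEN, 162 to 225 in WT DEN + PB, 114 to 193 in KO DEN and 105 to 132 in KO DEN + PB, with no overlap between genotypes under DEN + PB. Of 10 stellate cell markers 4 passed lower under DEN + PB (median -0.62), among them Lrat (-1.62), with summed signals of 81.3 to 91.6 in KO DEN + PB and 109 to 136 in WT DEN + PB.

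Cholangiocyte markers passed lower for 3 of 5 (Krt19, Krt7 and Epcam) and leukocyte markers for 2 of 7 (Ptprc and Itgam) under DEN + PB. Unlike the endothelial genes, Krt19 (1.27, limma adjusted p = 0.00211) and Krt7 (1.16, 0.0224) passed higher with PB in WT. Between genotypes the cholangiocyte median was -1.03 under DEN + PB and 0.23 under DEN. Of 8 hepatocyte markers 1 passed higher in KO under DEN + PB, Tat (0.67), with a median of 0.32 and sums of 1550 to 1914 in KO DEN + PB and 1242 to 1504 in WT DEN + PB. None of the 4 smooth muscle, 3 erythroid and 2 adipocyte markers tested passed under DEN + PB, with medians of -0.10, -0.44 and -1.04. In these lists, the marker that was never well above background was Plin1 of adipocytes. What part these shifts have in the endothelial result was not tested.

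**Figure D5:**
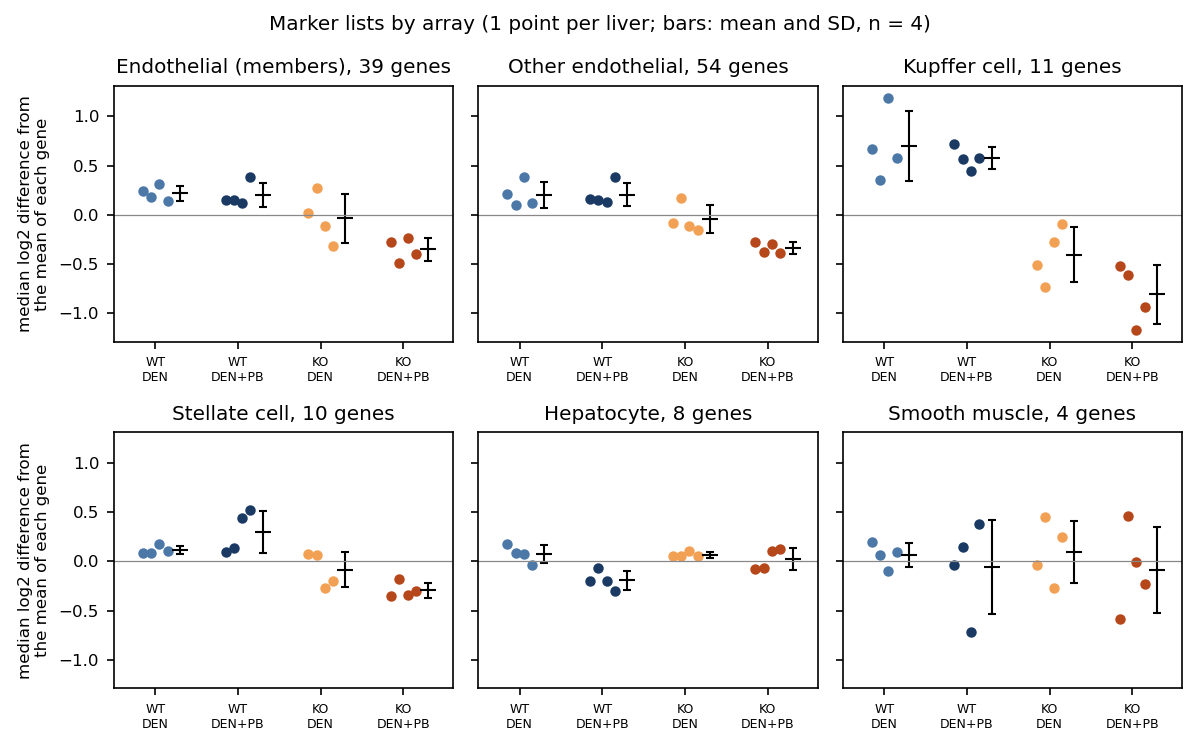
Median log2 difference from the mean of each gene, for 6 marker lists, 1 point per liver with mean and SD of 4. Endothelial, Kupffer cell and stellate cell lists have their lowest group mean in KO DEN + PB, Kupffer medians of KO livers lie below those of all WT livers, and smooth muscle medians show no separation of the groups.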

How the data were processed

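Total liver RNA of 16 mice, 4 per group, was labelled with Cy3 and hybridised to Agilent 4x44K whole mouse genome arrays on 4 slides. The deposited scanner files hold an intensity per spot, the processed signal, which the authors' software (Feature Extraction 12.0.3.1) corrected for background and spatial trend without scaling between arrays. The deposited series table holds the intensity mean per probe of the same signal, within 5e-04 percent. The normalization behind the study's own test is not given in the sources used here.

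Spots marked as outliers (71 to 122 per array) were removed before probe means were taken, and log2 signals were set against the 75th percentile of each array. That percentile was 137 to 294 in signal units, 58.3% to 67.7% of spots were well above background, and 0 were saturated. A probe was tested if every array of some group had it well above background (24455 of 41174). Probe accessions were named through the RefSeq table of GRCm38.p6 (28223 probes, 68.5%).

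Means of 4 groups were fitted over 16 arrays with limma 3.58.1 (lmFit, eBayes) in R 4.3.3, with Benjamini-Hochberg adjustment over all probes tested, and thresholds of 0.05 and 1.5-fold as in the study's methods. Tables were made with Python 3.11.15. Single genes were also compared by a two-sided exact permutation test. The number of arrays limits the precision. The fit was tested on simulated data. Deviations of same-numbered arrays correlated between -0.21 and 0.35 (median 0.01), and those of differently numbered arrays of different groups between -0.48 and 0.53 (median -0.02). These values cannot settle whether replicate numbers pair the mice. No block entered the main fit, and slide and replicate number were blocks in alternatives.

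All 40 genes are accounted for. Values of every array are given for genes past the threshold in any comparison, for the gene of each role with the largest change, and for Pecam1, Cdh5, Stab2, Lyve1, Clec4g, Wnt2, Wnt9b, Rspo3, Vwf and Cd34. From the other lists only genes past the threshold are named, at most 4 per comparison by adjusted p. The genes and lists were chosen with earlier results of these data known. Normexp used median spot and median background signals, as mean spot signals were not used here. Other alternatives were quantile normalization, the series table unscaled, other filters on dim probes, slide or replicate number as a block, no moderation, only the arrays compared, the mean over probes, no fold threshold, and each array left out.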

Additional observations from a re-analysis of the deposited data

Results flagged for a closer look

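Single livers stood apart from the other 3 of their group, by Dixon's criterion for 4 samples, in 7 of 84 groups checked, and chance gives such a sample in about 1 of 20 groups. In WT DEN, Flt4 was -2.87 in replicate 3 where the others were -2.06 to -1.92, Cd34 was -0.04 in replicate 3 where the others were -0.82 to -0.76, and Vwf was -0.03 in replicate 2 where the others were 0.55 to 0.60. In WT DEN + PB, Oit3 was 2.81 in replicate 4 where the others were 2.13 to 2.18. The median deviation of all 39 endothelial genes was 0.38 in that same array, the highest of WT DEN + PB, and it stood apart from the others as well. In KO DEN, Dnase1l3 was 1.45 in replicate 4 where the others were 1.78 to 1.84, and Wnt2 was 1.29 in replicate 2 where the others were 0.65 to 0.75. Without WT DEN + PB 4, 6 endothelial genes passed between genotypes under DEN + PB in place of 11.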

How the results depend on the processing

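Under DEN + PB the count of 11 genes lower in KO became 20 in the series table without scaling and 0 with normexp, and was 8 to 16 under the other alternatives (12 with normexp after outlying backgrounds were left out). With 1 array left out it ran from 6 to 13. Under DEN the count of 2 became 0 with the series table, normexp, no filter on dim probes, slide as a block or only the 8 arrays compared, 5 with the mean of all probes, and 0 to 3 with 1 array left out. For PB in KO the count of 0 became 1 with the series table (Wnt2) and 1 with the mean of all probes (Rspo3), and was 0 to 1 with 1 array left out. Counts for PB in WT and for the interaction were 0 under each alternative. With normexp the median of the endothelial genes between genotypes under DEN + PB went from -0.54 to -0.37. Among the processing alternatives, the series table moved the medians most for PB in KO (to -0.63), the interaction (to 0.70) and genotypes under DEN + PB (to -0.88). In that table the medians of all genes were -0.29, 0.35 and -0.31. Against all genes the endothelial medians there were thus still on the same side. Under DEN the median of -0.27 was -0.19 with slide as a block, -0.12 without KO DEN 4 and -0.40 without KO DEN 2, the ends of its range with 1 array left out. That range was -0.41 to -0.23 for PB in KO and -0.61 to -0.49 under DEN + PB.

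With replicate number as a block, 10 genes passed under DEN + PB, 2 under DEN and 0 in the other comparisons. Icam2 was the gene whose call the block ended, and a pairing of the mice by number was not shown.

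Signs turned for Rspo3 (-0.33 under DEN with normexp, 0.11 under DEN + PB with normexp after outlying backgrounds were left out), Wnt9b (-0.22 under DEN and -0.10 under DEN + PB with normexp, -0.08 under DEN + PB in the series table), Cd34 under DEN (0.05 in the series table, 0.14 with slide as a block, and 0.17, 0.20 and 0.05 without WT DEN 3, KO DEN 3 and KO DEN 4, in a range of -0.18 to 0.20 with 1 array left out) and Wnt2 under DEN (0.02 without WT DEN 3, in a range of -0.30 to 0.02). Over all 39 genes, at least 1 of the processing alternatives turned the sign for 10 genes under DEN, 7 under DEN + PB, 15 for PB in WT, 10 for PB in KO and 10 for the interaction. Among them were Pecam1 and Flt4 for PB in KO (0.07 and 0.01 with normexp) and for the interaction (-0.05 and -0.06), Rspo3 and Wnt9b for the interaction (-0.07 and -0.12), and, with the mean of all probes, Ptprb under DEN + PB (0.27) and Ets1 under DEN (0.36). No alternative turned the sign of a gene in a comparison that it passed. The causes were not tested.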
